A study of Mus musculus with 16 samples.

Results

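Axon guidance cues and their receptors were followed through the neuronal differentiation of mouse embryonic stem (ES) cells with and without Taf4a, which encodes a subunit of the general transcription factor TFIID. The genes were chosen by name: all Eph receptors, ephrins, semaphorins of classes 3 to 7, plexins, Slits, Robos and Unc5 receptors, with the netrins Ntn1 and Ntn4, the netrin receptor Dcc and the neuropilins Nrp1 and Nrp2. They numbered 67 of the 27807 genes measured, and 66 of the 16124 genes expressed highly enough to be tested. The tested genes were 33 ligands and 33 receptors.

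Growing axons are steered by membrane-bound and secreted proteins that attract or repel the growth cone. Slits signal through Robo receptors, netrins through Dcc and the Unc5 receptors, ephrins through Eph receptor tyrosine kinases, and semaphorins through plexins, with neuropilins as co-receptors of most class 3 semaphorins. Many of these genes also act outside the nervous system, in vessels, epithelia and the early embryo, and some are active in ES cells.

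RNA was measured in wild-type (WT, labelled Taf4+/+) and knockout (KO, labelled Taf4a-/-) cells at 4 stages, giving 8 groups of 2 libraries. ES cells were grown on feeder fibroblasts with LIF and serum. Embryoid bodies, floating aggregates of differentiating cells, were collected just before all-trans retinoic acid was added (EB4), after a day of it (EB5) and late in the treatment (EB8). The series names 2 independent lines of each genotype, made from blastocysts of heterozygous crosses, so that a difference between genotypes is also a difference between lines, and p-values measure the spread between these libraries.

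Values are read counts per gene scaled by each library's size factor, called normalised counts below. Changes are on the log2(normalised count + 1) scale with their standard error (SE), which understates the change of genes with low counts. They were tested with limma over all genes tested, and a gene was called where its Benjamini-Hochberg adjusted p was under 0.05. In such bulk samples fewer cells of a type and less RNA per cell cannot be told apart. Levels of different genes were compared only as normalised counts per kilobase of exon.

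Depth ran from 22442118 to 40711826 reads in genes per library, and the ES libraries were all deeper than the embryoid bodies, so that depth and stage cannot be told apart in ES against EB4. Taf4a itself was not lower in KO at any stage (log2 changes of 0.18 to 0.41, adjusted p = 0.194 to 0.524), and a count per gene does not resolve deleted exons. At EB8, 8 of 8 neuronal markers were lower in KO, with summed normalised counts of 23483 and 32409 in WT against 2484 and 2724 in KO, and 5 of 6 pluripotency markers were higher, with sums of 1324 and 1519 in WT against 23840 and 26764 in KO. Neural progenitor markers were lower in KO for 4 of 6 at EB8 (sums of 21486 and 16638 in WT against 3863 and 3839 in KO), endothelial markers were higher for 2 of 7 (1177 and 1147, and 3010 and 3778), and of 4 neural crest markers 1 was higher and 1 lower. At EB8, 22.9% of all genes tested were called. The endothelial sums in ES cells were 1812 and 7044 in WT and 2371 and 2226 in KO, and the number of endothelial cells was not measured. For fibroblast, mesoderm and visceral endoderm markers limma called 0 of 6, 0 of 3 and 0 of 2 at EB8, with 1, 0 and 1 at an unadjusted p under 0.05, and fibroblast sums of 2104 and 2773 in WT against 877 and 3137 in KO. The part of these cell type markers in the results below was not tested. WT ES replicate 2 stood apart, with an endothelial marker sum of 7044 against 1812 in WT ES replicate 1, most of it from Pecam1 at 6016 normalised counts, while Emcn, a further endothelial marker, was at 0 in both WT ES libraries.

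In WT embryoid bodies many guidance genes rose between EB4 and EB8. Of 66 genes, 32 rose and 9 fell, where 27.2% of all genes tested were called, 15% higher and 12.2% lower. The median log2 change was 1.11 over the guidance genes and -0.01 over all genes. The 5 largest rises were those of Dcc, Epha3, Robo3, Unc5c and Nrp1. In KO, 22 rose and 3 fell (18.5% of all genes were called, 9.86% higher and 8.67% lower), with a median log2 change of 0.79. Of the 32 genes that rose in WT, 18 also rose in KO and 16 were lower in KO than in WT at EB8. Of the 9 that fell in WT, only Sema6a also fell in KO, and Sema4a, Sema4b and Unc5b were higher in KO at EB8. Over all genes tested, 12.5% were lower and 10.4% higher in KO at EB8. The change in WT and the difference at EB8 both use the WT EB8 libraries, so picking genes by one tilts the other. The same shares over all genes that rose or fell in WT were not computed. The calls held whichever single library was left out for 29 of the 41 genes in WT and 9 of the 25 in KO, and the KO count dropped to 13 without KO EB4 replicate 2, 16 without KO EB8 replicate 1 and 13 without KO EB8 replicate 2.

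**Figure D1:**
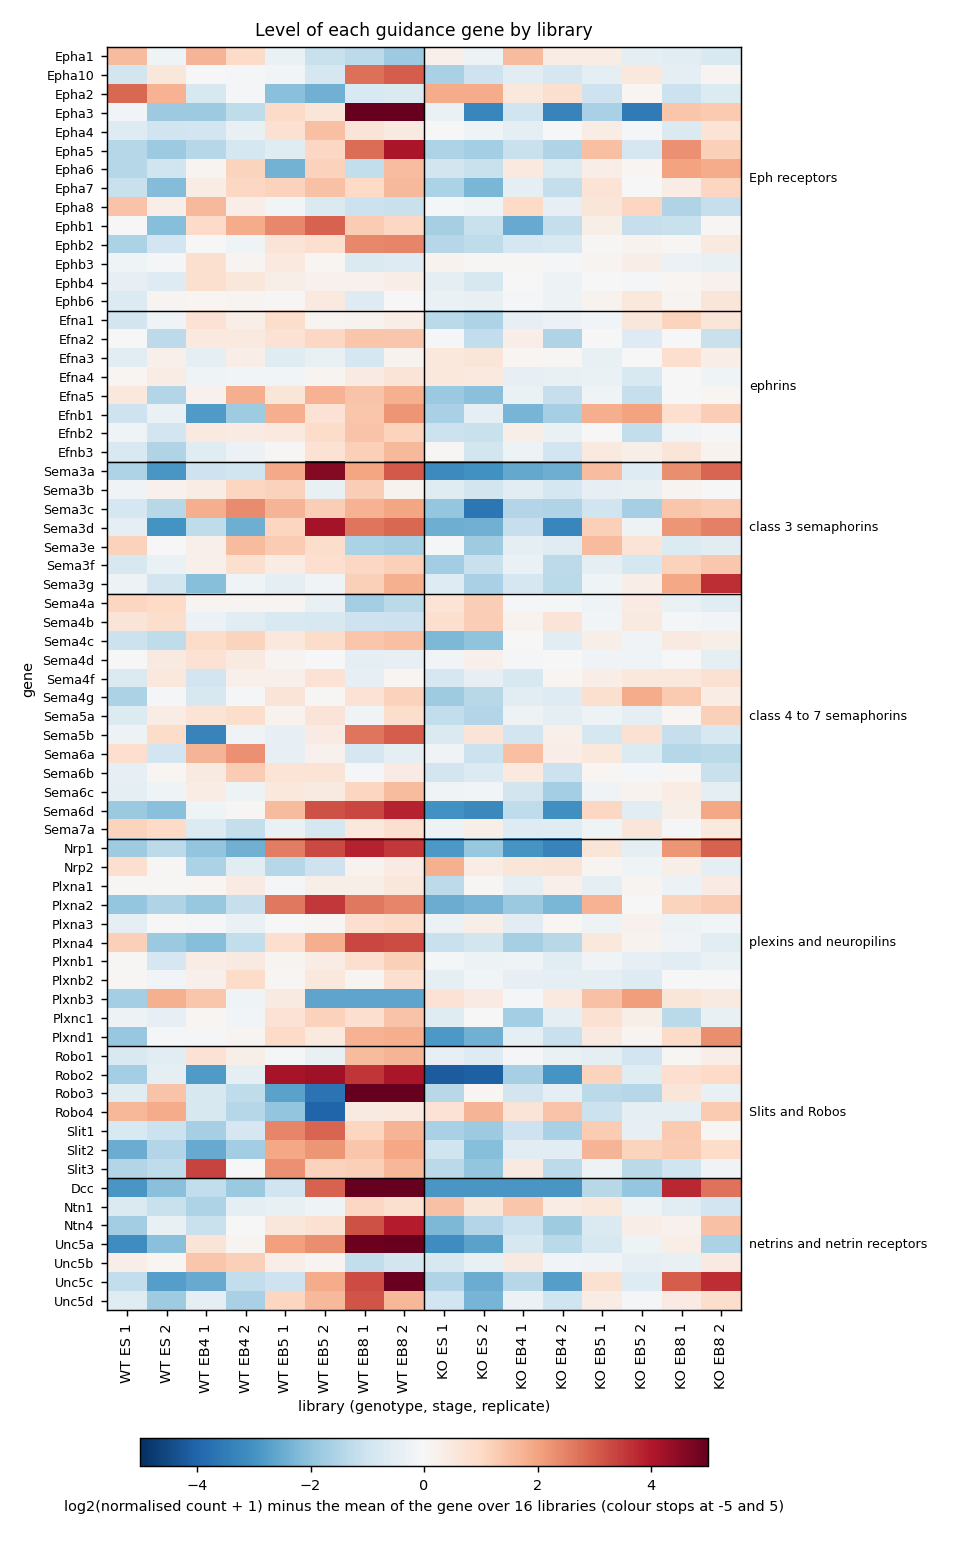
Level of each of the 67 guidance genes in each of the 16 libraries. Colour is log2(normalised count + 1) minus the mean of that gene over all libraries, rows are grouped by role and columns run by genotype, stage and replicate. Epha3, Robo3, Dcc and Unc5a have the deepest red in both WT EB8 columns and are paler or blue in the KO EB8 columns, while Unc5c is red in both.

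The change from EB4 to EB8 differed between KO and WT for 7 guidance genes, against 2.75% of all genes tested, 1.71% with a lower and 1.04% with a higher change in KO. The change was lower in KO for Robo3, Unc5a, Sema5b, Ephb2 and Ntn1 and higher for Unc5b and Sema3c. Of these, the calls of Robo3, Ntn1 and Unc5b held whichever library was left out, that of Unc5b was lost with the compared groups alone (adjusted p = 0.051), and the count was 3 without WT EB8 replicate 2 or KO EB4 replicate 1 and 4 without WT EB4 replicate 2, WT EB8 replicate 1, KO EB4 replicate 2 or KO EB8 replicate 1.

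**Figure D2:**
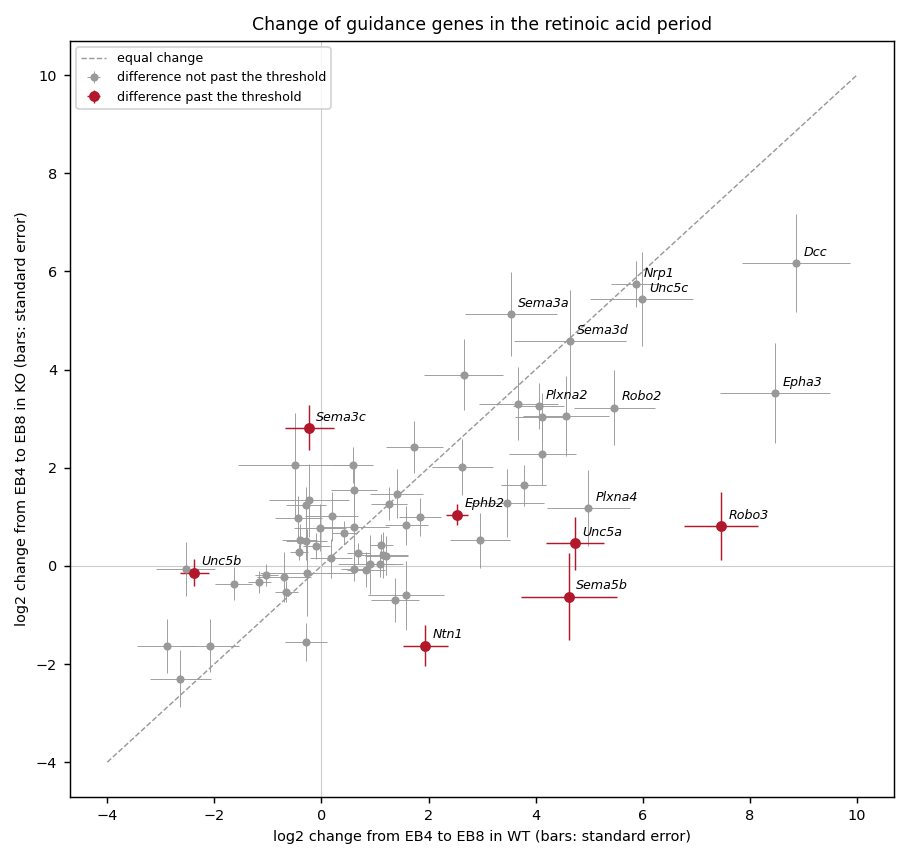
Log2 change from EB4 to EB8 in WT (horizontal axis) and in KO (vertical axis) for the 66 genes tested, with standard errors as bars and a dashed line of equal change. The 7 red points, where the difference between genotypes passed the threshold, lie off the line: Robo3, Unc5a, Sema5b, Ntn1 and Ephb2 below it, Unc5b and Sema3c above it, while Nrp1 and Sema3d lie on it.

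The promoters of 4 of the 7 genes are shown because they belong to genes that moved in opposite ways: Robo3 and Unc5a rose steeply in WT, Unc5b fell in WT, and Sema3c rose in KO. Each is the 250 bases before the start of the transcript on its own strand, from RefSeq on build GRCm38.p6, in lower case. Capitals mark GGGCGG or its reverse complement CCGCCC, a GC box, with overlapping matches joined.
Robo3, chr9:37433176-37433425, minus strand: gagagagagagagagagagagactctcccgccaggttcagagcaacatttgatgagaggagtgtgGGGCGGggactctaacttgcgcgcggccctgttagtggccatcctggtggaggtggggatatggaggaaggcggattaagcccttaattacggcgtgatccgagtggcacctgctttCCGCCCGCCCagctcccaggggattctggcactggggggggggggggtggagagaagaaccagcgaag
Unc5a, chr13:54949161-54949410, plus strand: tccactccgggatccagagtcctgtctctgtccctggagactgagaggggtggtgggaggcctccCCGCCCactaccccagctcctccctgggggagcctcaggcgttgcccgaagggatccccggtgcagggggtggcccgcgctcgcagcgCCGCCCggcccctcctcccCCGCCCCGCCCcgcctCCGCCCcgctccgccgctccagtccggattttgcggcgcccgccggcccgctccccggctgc
Unc5b, chr10:60831582-60831831, minus strand: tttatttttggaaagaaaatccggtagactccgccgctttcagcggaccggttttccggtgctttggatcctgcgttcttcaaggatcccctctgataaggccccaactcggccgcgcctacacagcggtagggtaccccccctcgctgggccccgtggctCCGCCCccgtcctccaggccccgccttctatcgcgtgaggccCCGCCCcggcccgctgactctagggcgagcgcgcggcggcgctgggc
Sema3c, chr5:17574566-17574815, plus strand: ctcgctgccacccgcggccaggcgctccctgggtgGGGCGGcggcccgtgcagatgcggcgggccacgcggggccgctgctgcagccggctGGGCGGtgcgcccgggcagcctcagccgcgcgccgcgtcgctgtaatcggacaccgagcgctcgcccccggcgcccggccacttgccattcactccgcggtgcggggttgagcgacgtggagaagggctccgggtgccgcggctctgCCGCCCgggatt
Such a GC box lay in 71.2% of the 73 promoters found for 57 of the guidance genes and in 32.7% of all 32851 promoters of that length, on either strand. TATAAA lay in 2.74% and 12.4%, AGGTCA (a nuclear receptor half-site) in 13.7% and 14%, and CAGCTG (an E-box) in 15.1% and 13%. The guidance promoters had a median GC content of 64.4%, against 52.4% over all promoters, and a median of 16 CpG dinucleotides against 6. The box was found 3 times in the promoter of Robo3, 5 times in that of Unc5a, 2 times in that of Unc5b and 3 times in that of Sema3c. It was found 0 times in those of Ephb2 and Sema5b, whose change was lower in KO, so the 4 shown do not stand for all 7. Whether the box bears on the direction of change was not tested.

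At EB8, 24 guidance genes differed between genotypes, 21 of them lower in KO and 3 higher. Over all genes tested 22.9% were called, 12.5% lower and 10.4% higher. The median log2 change was -0.67 over the guidance genes and -0.03 over all genes. Receptors and ligands were both represented: 12 of 33 receptors and 9 of 33 ligands were lower. The genes called whichever library was left out were Epha3, Epha10, Ephb2, Plxna4, Plxnb1, Robo1, Robo3, Sema4c and Unc5a. The count was 12 without WT EB8 replicate 2 and 14 without KO EB8 replicate 1, and lost calls are given with each family.

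**Figure D3:**
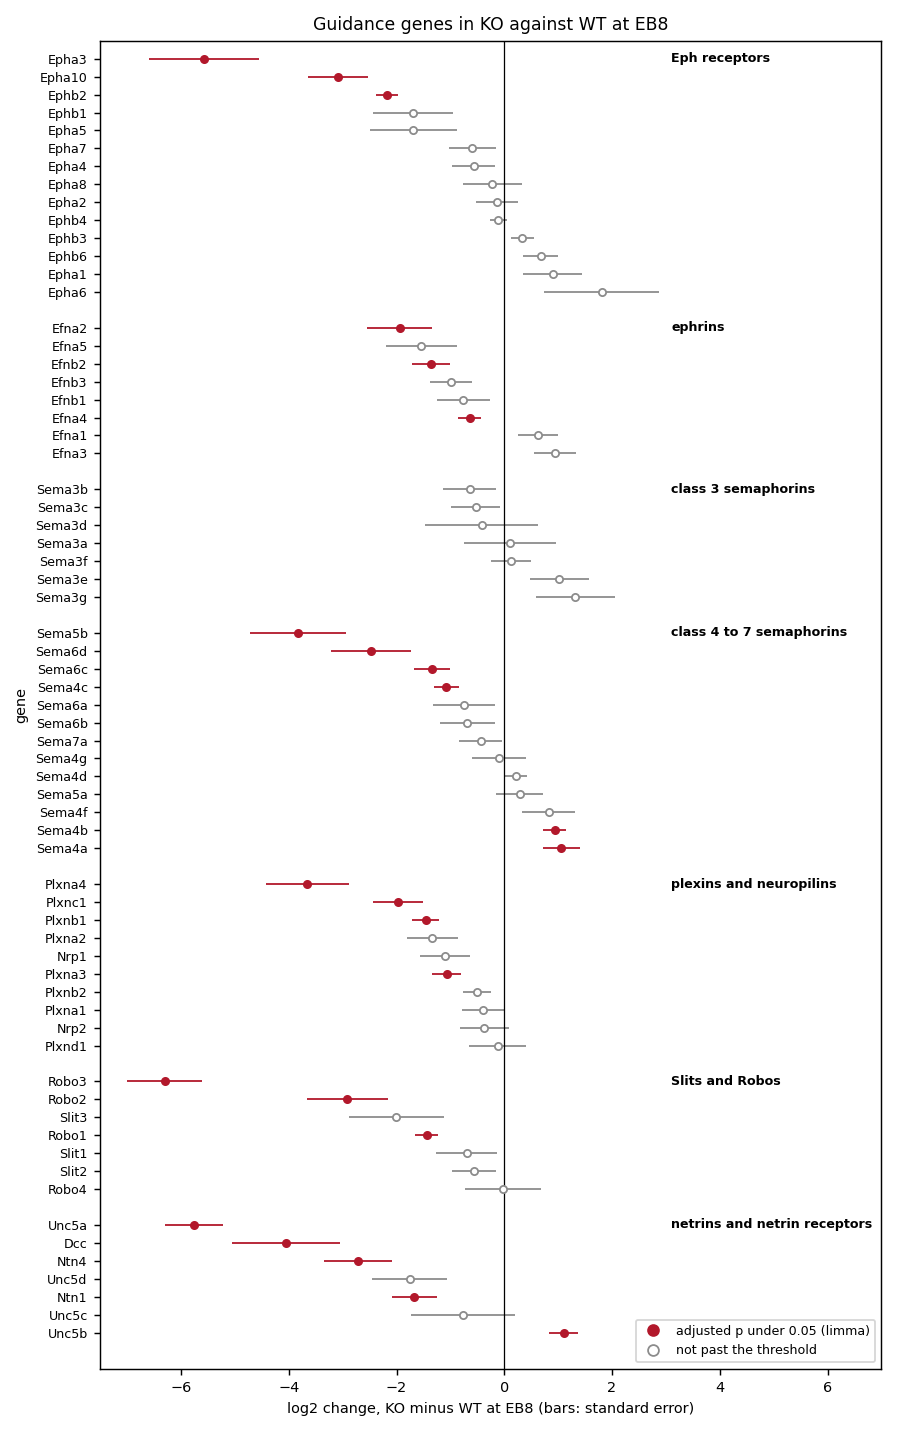
Log2 change, KO minus WT, at EB8 for the 66 genes tested, ordered within each role, with standard errors as bars. Filled red points passed the threshold: 21 lie left of 0, with Robo3, Unc5a and Epha3 farthest, and Unc5b, Sema4a and Sema4b lie to the right. No class 3 semaphorin is filled.

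Netrins and their receptors changed in most members. At EB8, 4 of 7 were lower in KO and 1 was higher, and from EB4 to EB8 6 rose and 1 fell in WT, against 3 and 1 in KO. Of all genes tested, 22.9% were called at EB8, 27.2% from EB4 to EB8 in WT and 18.5% in KO. Dcc, the receptor through which netrin attracts axons, was nearly silent before retinoic acid, at 0 and 0.8 normalised counts in WT ES, 2.2 and 1.1 in WT EB4, then 2.8 and 58.2 in WT EB5 and finally 978 and 1465 in WT EB8. In KO it was at 0 in all 4 ES and EB4 libraries, 1.9 and 1 in EB5, and 102 and 49 in EB8. The EB8 groups did not overlap, and the WT EB5 libraries were far apart from each other. The WT reads rose 751-fold from EB4 to EB8 (95% counting interval 257 to 3642), from only 3 reads, and those of KO at least 20.6-fold, against a floor of 3 reads per library. The difference at EB8 was a log2 change of -4.06 (SE 1, adjusted p = 0.0123), which was not called without WT EB8 replicate 2 or KO EB8 replicate 2 (adjusted p = 0.08 and 0.0838) or with a pseudocount of 0.1 (0.0607).

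Unc5a, a receptor for netrin-induced repulsion, had the highest level per kilobase of all guidance genes in WT EB8, at 1431 normalised counts per kilobase. It stood at 18.2 and 38.3 normalised counts in WT ES, 262 and 184 in WT EB4, then 692 and 830 in WT EB5 and finally 4925 and 7006 in WT EB8. In KO it stood at 18.3 and 25 in ES, 94.6 and 63.8 in EB4, 94.8 and 141 in EB5, and 207 and 55.4 in EB8. From EB4 on, both KO libraries lay below both WT libraries. The difference was a log2 change of -2.70 (SE 0.55, adjusted p = 0.0226) at EB5 and -5.76 (SE 0.55, adjusted p = 4.89e-05) at EB8, or 54.3-fold lower. The EB5 call was lost without any single library of that stage (adjusted p = 0.0681, 0.135, 0.0808 and 0.18 without WT EB5 replicate 1, WT EB5 replicate 2, KO EB5 replicate 1 and KO EB5 replicate 2).

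Unc5b, a member of the same receptor family that is also prominent in vessels, took the opposite course. It went from 5571 and 4799 normalised counts in WT EB4 to 892 and 1118 in WT EB8, and from 2859 and 1936 in KO EB4 to 1607 and 2853 in KO EB8. Both KO libraries were below both WT libraries at EB4 and above both at EB8. The log2 changes were -1.14 (SE 0.27, adjusted p = 0.0333) at EB4 and 1.10 (SE 0.27, adjusted p = 0.0125) at EB8. The EB4 call was lost without WT EB4 replicate 1, WT EB4 replicate 2 or KO EB4 replicate 2 (adjusted p = 0.138, 0.0851 and 0.296), and the EB8 call without WT EB8 replicate 1 or KO EB8 replicate 2 (0.0871 and 0.12) and with the compared groups alone (0.0536). The EB4 call of Unc5b was also lost with no filter on low values (also 0.0536). Kdr and Cdh5, 2 of the 7 endothelial markers, do not stand for the whole list. In WT EB8 Kdr was at 348 and 358 and Cdh5 at 263 and 237. In KO EB8 they were at 195 and 808 and at 140 and 547, higher in the KO library in which Unc5b was higher. In KO EB8 replicate 1 both markers were below both WT libraries. Over all 7 endothelial markers, the log2 changes at EB8 ran from -2.20 to 3.03, with 6 positive and 1 negative. Of the 7, limma called 2 higher in KO at EB8, and 1 higher and 1 lower at EB4. The part of these markers in the level of Unc5b was not tested.

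Ntn1, the secreted netrin of the floor plate, also crossed over. Its normalised counts were 686 and 522 in WT ES, 385 and 807 in WT EB4, then 883 and 964 in WT EB5 and finally 2322 and 1978 in WT EB8. In KO they were 3127 and 1725, 2946 and 1470, 1623 and 941, and 785 and 577 at the same stages. KO was above WT in ES and EB4, overlapped it at EB5 and was below it at EB8. It was higher in KO at EB4 by a log2 change of 1.90 (SE 0.42, adjusted p = 0.0249) and lower at EB8 by one of -1.67 (SE 0.42, adjusted p = 0.0137), and the log2 change of 1.95 in ES was not called (adjusted p = 0.112). Ntn1 rose in WT from EB4 to EB8 (log2 change of 1.94, adjusted p = 0.0048) and fell in KO (-1.63, adjusted p = 0.0197), and the difference between these changes was -3.57 (SE 0.59, adjusted p = 0.0105). Single comparisons depended on single libraries: at EB4 the adjusted p was 0.141 without WT EB4 replicate 1, 0.112 without KO EB4 replicate 1 and 0.0946 without KO EB4 replicate 2, at EB8 it was 0.0755 without WT EB8 replicate 1, 0.0536 without WT EB8 replicate 2 and 0.0886 without KO EB8 replicate 2, the rise in WT was at 0.0617 without WT EB4 replicate 1, and the fall in KO was at 0.155 without KO EB4 replicate 1 and 0.117 without KO EB8 replicate 2, and at 0.0544 with the compared groups alone. Genes of chromosome 11, where Ntn1 lies, ran 0.16 to 0.26 log2 units above their stage mean in all 4 libraries of KO replicate 1, in each of which Ntn1 was higher than in replicate 2. In KO replicate 2 they were at -0.07 to -0.03, and there Ntn1 was at 1725 in ES and 1470 in EB4. The part of such chromosome levels, here and below, in the level of any gene was not tested.

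Ntn4, a laminin-related netrin of basement membranes, rose from 23 and 49.3 normalised counts in WT EB4 to 467 and 787 in WT EB8 and reached 59.1 and 142 in KO EB8. The EB8 groups did not overlap, with a log2 change of -2.71 (SE 0.63, adjusted p = 0.00929), which was not called without WT EB8 replicate 2 or KO EB8 replicate 1 (adjusted p = 0.0794 and 0.0867). Unc5c, a further repulsive netrin receptor, showed no such split. It rose in WT from 7.7 and 20.4 at EB4 to 476 and 1547 at EB8 and in KO from 17.5 and 6.4 to 403 and 633. The EB8 groups overlapped, and the difference of -0.76 (SE 0.96, adjusted p = 0.611) turned to 0.09 without WT EB8 replicate 2. Unc5d, the other Unc5 receptor, stood at 173 and 61 in WT EB8 against 25 and 35 in KO EB8 without passing the test (log2 change of -1.76). Unc5d lies on chromosome 8, whose genes ran 0.35 to 0.37 log2 units above their stage mean in replicate 1 of the WT embryoid bodies.

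**Figure D4:**
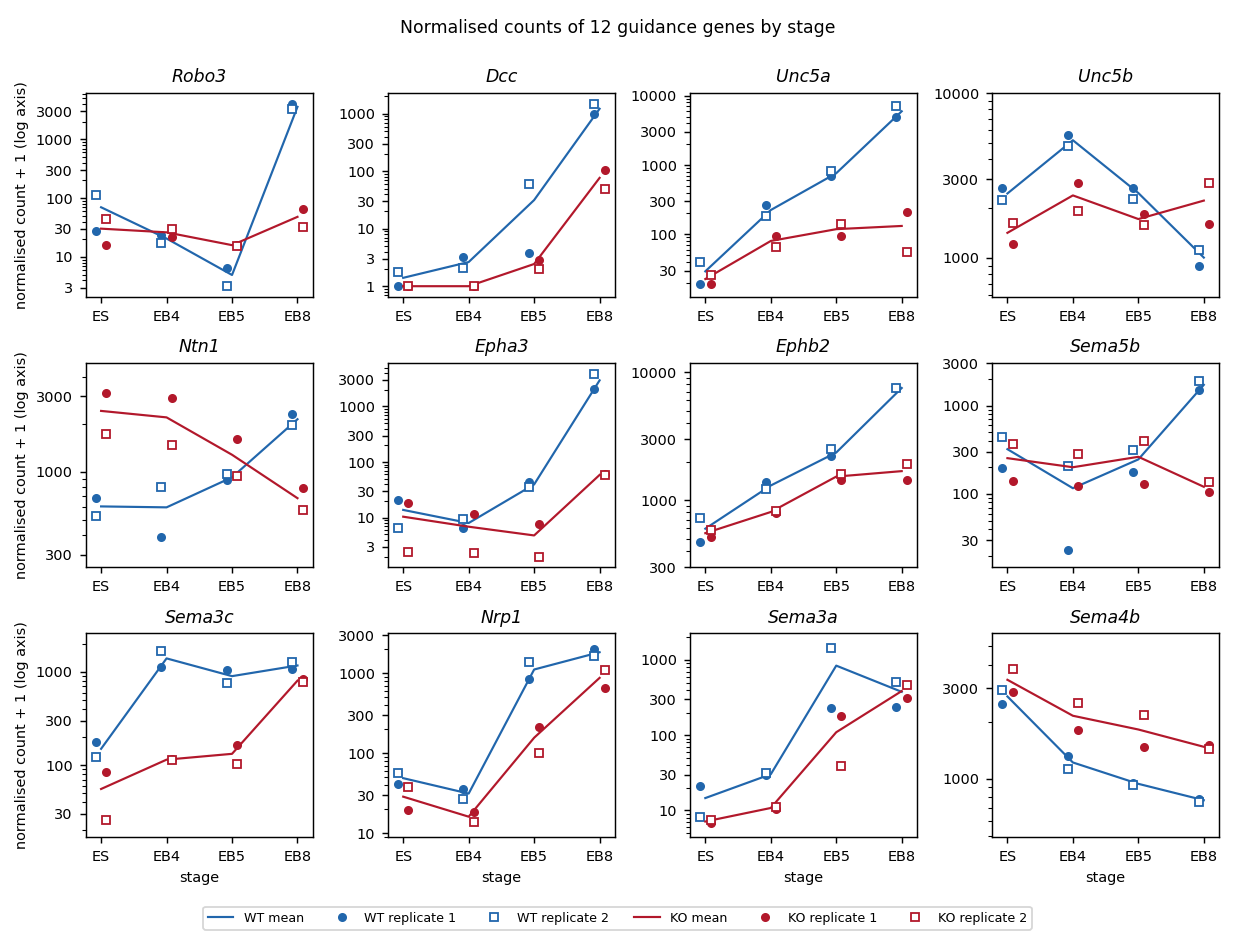
Normalised counts plus 1 on log axes for 12 guidance genes at each stage, with lines through the group means, filled circles for replicate 1 and open squares for replicate 2. At EB8 Robo3, Dcc, Unc5a and Epha3 lie between 978 and 7006 in WT (blue) and between 30.9 and 207 in KO (red), Ntn1 and Unc5b cross between EB4 and EB8, and Nrp1, Sema3a and Sema3c in KO come near the WT level at EB8.

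Most Robo family members were lower in KO at EB8, while no Slit was called there. Robo1, Robo2 and Robo3 were lower in KO at EB8, and Slit1, Slit2, Slit3 and Robo4 were not called. From EB4 to EB8, 5 of the 7 rose in WT and 3 in KO. Of all genes tested, 12.5% were lower in KO at EB8, and 15% rose in WT and 9.86% in KO from EB4 to EB8. Robo3, a divergent Robo that commissural axons need to cross the midline, had the largest difference of all guidance genes. Its normalised counts were 26.4 and 112 in WT ES, 23 and 16.1 in WT EB4, then 5.6 and 2.2 in WT EB5 and finally 3946 and 3243 in WT EB8. In KO they were 14.9 and 43.6, 21 and 29.4, 15.2 and 14.5, and 63.3 and 30.9. Before EB8 no library exceeded 112, and at EB8 only the WT libraries did. Robo3 rose 177-fold in WT from EB4 to EB8 (log2 change of 7.46, SE 0.69, adjusted p = 1.55e-05), and the change of 0.81 in KO was not called (adjusted p = 0.453). KO was 79-fold lower at EB8 (log2 change of -6.30, SE 0.69, adjusted p = 0.000129).

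Robo2, a repulsive Slit receptor, came on earlier. It moved from 9.9 and 55.8 normalised counts in WT EB4 to 1329 and 1442 in WT EB5, then 925 and 1298 in WT EB8. In KO it moved from 23.4 and 8.9 to 165 and 49.5 and then 136 and 153. The groups overlapped at EB4 and not at EB5 or EB8. The log2 change was -3.92 (SE 0.76, adjusted p = 0.0184) at EB5 and -2.91 (SE 0.76, adjusted p = 0.0158) at EB8. The EB5 call was lost without WT EB5 replicate 1, WT EB5 replicate 2 or KO EB5 replicate 2 (adjusted p = 0.0675, 0.114 and 0.245), and the EB8 call without WT EB8 replicate 2, KO EB8 replicate 1 or KO EB8 replicate 2 (0.0965, 0.0772 and 0.0591). Robo1, the other main Slit receptor, was present at every stage. It stood at 4165 and 4540 in WT EB8 against 1469 and 1750 in KO EB8, with a log2 change of -1.44 (SE 0.21, adjusted p = 0.000665). The genes lie near each other on chromosome 16, Robo1 at chr16:72663394-73046340 on the plus strand and Robo2 at chr16:73892551-74412070 on the minus strand (NCBI37). From EB4 to EB5 in WT, where Robo2 climbed in both libraries, Robo1 went from 2327 and 1725 to 1285 and 1076.

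Among the ligands, Slit2 was higher in KO before retinoic acid, at 476 and 476 normalised counts in KO EB4 against 122 and 208 in WT EB4. The groups did not overlap and the log2 change was 1.57 (SE 0.41, adjusted p = 0.0457). That call was lost without any single library (adjusted p = 0.216 without WT EB4 replicate 1, 0.0646 without WT EB4 replicate 2, 0.11 without KO EB4 replicate 1 and 0.254 without KO EB4 replicate 2), with no filter on low values (0.0714), with the compared groups alone (0.164) and with edgeR (0.0573). By EB8 Slit2 stood at 1811 and 2654 in WT against 1662 and 1325 in KO, and the difference of -0.56 was not called (adjusted p = 0.357). Slit1 was at 609 and 852 in WT EB5 against 275 and 83.4 in KO EB5, a log2 change of -2.24 (SE 0.57, adjusted p = 0.0457) that was lost without WT EB5 replicate 1, WT EB5 replicate 2 or KO EB5 replicate 2 (adjusted p = 0.105, 0.236 and 0.462), with a pseudocount of 0.1 (0.0508), with no filter on low values (0.0725), with the compared groups alone (0.107) and with edgeR (0.0676). The groups of Slit1 overlapped at EB8. Slit3 in WT EB4 was at 2664 in replicate 1 and 251 in replicate 2, and it was called between genotypes at no stage.

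Eph receptors divided by member. Of 14 tested, 3 were lower in KO at EB8, and from EB4 to EB8 5 rose and 3 fell in WT, against 4 and 1 in KO. The share called at EB8 was 21.4%, near the 22.9% of all genes. From EB4 to EB8, 27.2% of all genes were called in WT and 18.5% in KO. The log2 changes at EB8 ran from -5.57 to 1.81 over the 14. Epha3, a receptor of ephrin-A ligands, had the largest difference: its normalised counts were 2045 and 3834 in WT EB8 against 59.1 and 56.5 in KO EB8, from 43.3 and 34 in WT EB5 against 6.6 and 1 in KO EB5. The KO libraries lay far below the WT libraries, and the log2 change was -5.57 (SE 1.02, adjusted p = 0.00243). Epha3 nevertheless rose in KO from EB4 to EB8 (log2 change of 3.52, adjusted p = 0.032), a rise that was not called without KO EB4 replicate 2, KO EB8 replicate 1 or KO EB8 replicate 2 (adjusted p = 0.229, 0.119 and 0.112), with no filter on low values (0.0543), with quantile normalisation (0.0802) or with the compared groups alone (0.0649). Epha10, whose kinase domain is held to be inactive, stayed between 15.5 and 44.6 in WT before EB8 and then reached 211 and 254. In KO EB8 it was at 21.1 and 33, within its earlier range, with a log2 change of -3.08 (SE 0.56, adjusted p = 0.00232).

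Ephb2, a receptor of ephrin-B ligands, was the most precisely measured of the 3. It was higher at each later stage in WT, from 473 and 721 normalised counts in ES to 1385 and 1214 in EB4, 2205 and 2498 in EB5, and 7472 and 7550 in EB8. In KO it went from 518 and 583 to 791 and 822, 1447 and 1603, and 1446 and 1918. The genotypes overlapped in ES and were separate from EB4 on. The difference was called only at EB8 (log2 change of -2.17, SE 0.21, adjusted p = 4.98e-05), with adjusted p = 0.0696 at EB4 and 0.108 at EB5. Epha5, another receptor of ephrin-A ligands, was at 119 and 291 in WT EB8 against 84.4 and 38.3 in KO EB8, and its difference of -1.69 was not called (adjusted p = 0.155).

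Ephb1 differed early and Epha2 in the other direction. Ephb1, a further ephrin-B receptor, was at 127 and 242 normalised counts in WT EB4 against 10.5 and 28.1 in KO EB4, and at 351 and 507 in WT EB5 against 81.5 and 29.1 in KO EB5. Both KO libraries lay below both WT libraries at each of these stages. The log2 changes were -3.27 (SE 0.75, adjusted p = 0.028) and -3.09 (SE 0.75, adjusted p = 0.0394). The EB4 call was lost without WT EB4 replicate 1, WT EB4 replicate 2, KO EB4 replicate 1 or KO EB4 replicate 2 (adjusted p = 0.0626, 0.13, 0.113 and 0.111), and the EB5 call without WT EB5 replicate 1, WT EB5 replicate 2 or KO EB5 replicate 2 (0.0999, 0.209 and 0.395). The EB5 call of Ephb1 was also lost with no filter on low values (0.0649), with the compared groups alone (0.0712) and with edgeR (0.0533). Epha2, a receptor abundant in ES cells, had the highest level per kilobase of all guidance genes in WT ES and KO ES, at 2846 and 1959 normalised counts per kilobase.

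The normalised counts of Epha2 were lower in the embryoid bodies than in ES cells in both genotypes, going from 18268 and 8332 in WT ES to 1439 and 2356 in WT EB4 and 592 and 477 in WT EB5, and from 9217 and 9093 in KO ES to 3646 and 4427 in KO EB4 and 1234 and 2728 in KO EB5. It was higher in KO at EB5 (log2 change of 1.79, SE 0.39, adjusted p = 0.0287), a call lost without WT EB5 replicate 1, WT EB5 replicate 2 or KO EB5 replicate 2 (adjusted p = 0.0751, 0.169 and 0.33). At EB8 the groups overlapped, at 1483 and 1526 in WT against 1187 and 1569 in KO, and the log2 change of -0.14 turned to 0.0016 with upper-quartile rescaling and to 0.06 without KO EB8 replicate 1. Of 6 pluripotency markers 3 were also higher in KO at EB5, with sums of 33869 and 56162 against 10239 and 7684 in WT, and their part in the level of Epha2 was not tested.

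Ephrins are the membrane-bound ligands of the Eph receptors. At EB8, 3 of 8 were lower in KO, at log2 changes of -0.65 to -1.94, and from EB4 to EB8 3 rose in WT and 2 in KO. Of all genes tested, 12.5% were lower in KO at EB8, and 15% rose in WT and 9.86% in KO from EB4 to EB8. At EB4 and EB5 limma called 0 of 8 (2 and 3 at an unadjusted p under 0.05), edgeR 0 at both stages, and DESeq2 1 and 2. Of the 16124 genes tested, limma called 986 and 700 at these stages, edgeR 814 and 602, and DESeq2 2082 and 1758. Efna2, a lipid-anchored ephrin of the nervous system, was at 777 and 795 normalised counts in WT EB8 against 298 and 140 in KO EB8. The groups did not overlap, and the log2 change of -1.94 (SE 0.60, adjusted p = 0.0357) was lost without WT EB8 replicate 1, WT EB8 replicate 2 or KO EB8 replicate 2 (adjusted p = 0.114, 0.128 and 0.219), with no filter on low values (0.0543) and with edgeR (0.0516).

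Efnb2, a transmembrane ephrin that also marks arteries, had the highest level per kilobase of the ephrins in WT EB8 (996 normalised counts per kilobase). Its gene lies on chromosome 8, which ran high in replicate 1 of the WT embryoid bodies, as given above. It was at 5339 and 4203 normalised counts in WT EB8 against 1803 and 1884 in KO EB8, with a log2 change of -1.36 (SE 0.36, adjusted p = 0.0161) that was lost without WT EB8 replicate 1, KO EB8 replicate 1 or KO EB8 replicate 2 (adjusted p = 0.0989, 0.0768 and 0.0611). Efna4 differed least, at 534 and 627 in WT against 394 and 347 in KO, and its log2 change of -0.65 (SE 0.22, adjusted p = 0.0493) was lost without any single EB8 library (adjusted p = 0.0861 without WT replicate 1, 0.23 without WT replicate 2, 0.0996 without KO replicate 1 and 0.2 without KO replicate 2). The Efna4 call was also lost with a pseudocount of 5 (0.0514), no filter on low values (0.0602), upper-quartile rescaling (0.106), quantile normalisation (0.0706), the compared groups alone (0.118), the replicate block (0.0515) and edgeR (0.0581), and an antisense gene shares 10.5% of its exon length. Efnb1 and Efnb3, the other transmembrane ephrins, were not called at EB8 (adjusted p = 0.295 and 0.0882). Efnb1 went from 71.2 and 148 at EB4 to 1810 and 861 at EB5 in WT and from 103 and 161 to 1832 and 2060 in KO, a step present in every library that was not among the comparisons tested. Efna5 shares 59.9% of its exon length with another identifier of the same name, so that its counts are uncertain.

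Class 3 semaphorins are the secreted ones. At EB4 and EB5 limma and edgeR each called 1 of 7 lower in KO, and DESeq2 called 4 of 7 lower at both stages. DESeq2 also called more of the 16124 genes tested: 1164 and 932 lower, against 543 and 350 by limma and 451 and 313 by edgeR. At EB8 limma called 0 of 7 (0 at an unadjusted p under 0.05) and 22.9% of all genes, and edgeR and DESeq2 also called 0 of 7. In KO 5 of 7 rose from EB4 to EB8, against 3 in WT, where 9.86% and 15% of all genes rose. Sema3a, a repellent that acts through Nrp1, was at 28.5 and 30 normalised counts in WT EB4 against 9.3 and 10.2 in KO EB4. At EB5 it was at 226 and 1454 in WT against 179 and 37.8 in KO, and at EB8 at 239 and 512 in WT against 308 and 462 in KO. The KO libraries lay below WT through EB5 and within the WT range at EB8. The log2 difference was -2.78 (SE 0.85, adjusted p = 0.0867) at EB5 and 0.11 (SE 0.85, adjusted p = 0.947) at EB8. The rise in WT was not called without WT EB4 replicate 1 or WT EB8 replicate 2 (adjusted p = 0.0505 and 0.0791).

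Sema3c, which acts through neuropilins and also in the outflow tract of the heart, had the clearest early deficit. Its normalised counts were 176 and 121 in WT ES, 1119 and 1664 in WT EB4, then 1043 and 752 in WT EB5 and finally 1068 and 1267 in WT EB8. In KO they were 83.8 and 25, 116 and 111, 161 and 101, and 831 and 776. WT reached its level before retinoic acid and KO only at EB8, where KO still lay just below WT. The log2 change was -3.58 (SE 0.46, adjusted p = 0.00434) at EB4, 11.9-fold lower, then -2.79 (SE 0.46, adjusted p = 0.0128) at EB5 and -0.53 (SE 0.46, adjusted p = 0.433) at EB8. The EB4 call was lost without KO EB4 replicate 2 (adjusted p = 0.0754), and the EB5 call without WT EB5 replicate 1, WT EB5 replicate 2 or KO EB5 replicate 2 (0.0534, 0.0615 and 0.18).

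Sema3d followed Sema3a, with 18.6 and 7.5 in WT EB4, then 98 and 832 in WT EB5 and finally 298 and 344 in WT EB8, and 19.9 and 3.8, 105 and 37.8, and 214 and 266 in KO. Replicate 2 of WT EB5 was the higher for Sema3a, Sema3d, Unc5c and Dcc alike. Sema3e, a ligand that binds Plxnd1 without a neuropilin, ran the other way. In WT it went from 2900 and 2260 at EB5 to 406 and 383 at EB8, and in KO from 3588 and 1953 to 762 and 843. Both KO libraries lay above both WT libraries at EB8, with a log2 change of 1.02 (SE 0.55, adjusted p = 0.202) that was called only when the compared groups were fitted alone (0.0263). The genes of Sema3a, Sema3c, Sema3d and Sema3e lie together on chromosome 5, from the start of Sema3d at 12383166 to the end of Sema3c at 17236086 on NCBI37.

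Membrane-bound semaphorins of classes 4 to 7 moved in both directions. At EB8, 4 of 13 were lower in KO and 2 were higher, and from EB4 to EB8 4 rose and 4 fell in WT, against 2 and 1 in KO. Of all genes tested, 22.9% were called at EB8, 27.2% from EB4 to EB8 in WT and 18.5% in KO. Sema5b, a transmembrane semaphorin with thrombospondin repeats, was at 1510 and 1914 normalised counts in WT EB8 against 103 and 135 in KO EB8. Earlier it ranged from 21.9 to 442 in WT and 120 to 396 in KO with no separation of the genotypes. The log2 change at EB8 was -3.83 (SE 0.89, adjusted p = 0.0092) and was not called without WT EB8 replicate 2 or KO EB8 replicate 1 (adjusted p = 0.0605 and 0.0568). Sema6d and Sema6c, ligands of class A plexins, were lower in KO at EB8 as well. Sema6d stood at 636 and 885 in WT against 76 and 238 in KO, with a log2 change of -2.47 (SE 0.74, adjusted p = 0.0313) that was lost without WT EB8 replicate 1, WT EB8 replicate 2 or KO EB8 replicate 1 (adjusted p = 0.0793, 0.149 and 0.229) and with no filter on low values (0.0511).

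Sema6c stood at 944 and 1332 in WT EB8 against 587 and 331 in KO EB8 (log2 change of -1.34, SE 0.34, adjusted p = 0.0138), and at 575 and 380 in WT EB4 against 241 and 138 in KO EB4 (-1.35, SE 0.34, adjusted p = 0.0383). Neither pair of groups overlapped. The EB8 call was lost without WT EB8 replicate 2 or KO EB8 replicate 2 (adjusted p = 0.111 and 0.123), and the EB4 call without WT EB4 replicate 1, WT EB4 replicate 2 or KO EB4 replicate 2 (0.188, 0.0602 and 0.324), with no filter on low values (0.0584) and with quantile normalisation (0.0687). Sema4c, a ligand of class B plexins, was likewise lower at both stages, at 1428 and 1615 in WT EB4, 730 and 504 in KO EB4, 1975 and 2113 in WT EB8 against 1032 and 908 in KO EB8. Its log2 changes were -1.32 (SE 0.23, adjusted p = 0.0118) at EB4 and -1.08 (SE 0.23, adjusted p = 0.00651) at EB8, and the EB4 call was lost without WT EB4 replicate 2 or KO EB4 replicate 2 (adjusted p = 0.0578 and 0.14).

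Sema4b was the only guidance gene called at EB4, EB5 and EB8 alike, each time higher in KO. Its normalised counts went down with differentiation from 2480 and 2955 in WT ES to 1312 and 1125, 949 and 931, and 783 and 757, and from 2883 and 3771 in KO ES to 1801 and 2497, 1474 and 2163, and 1508 and 1440. The KO libraries lay above the WT libraries at each embryoid body stage and overlapped them in ES. The log2 changes were 0.80 (SE 0.22, adjusted p = 0.0496), 0.93 (SE 0.22, adjusted p = 0.0361) and 0.94 (SE 0.22, adjusted p = 0.00927). The EB4 call was lost with a pseudocount of 0.1, no filter on low values, either rescaling, the compared groups alone or edgeR, and without WT EB4 replicate 1, WT EB4 replicate 2 or KO EB4 replicate 2 (adjusted p = 0.0981, 0.192 and 0.388), the EB5 call without WT EB5 replicate 1, WT EB5 replicate 2 or KO EB5 replicate 2 (0.112, 0.171 and 0.396) or with no filter on low values (0.0565), and the EB8 call without WT EB8 replicate 2 or KO EB8 replicate 1 (0.0573 and 0.0551).

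Sema4a, a semaphorin best known from immune cells and the retina, was higher in KO at EB8, at 79.1 and 67.1 against 30.5 and 39.2 in WT (log2 change of 1.06, SE 0.34, adjusted p = 0.0428). It was lost without any single EB8 library (adjusted p = 0.192 without WT replicate 1, 0.0827 without WT replicate 2, 0.178 without KO replicate 1 and 0.0921 without KO replicate 2), with a pseudocount of 5 (0.0503), with no filter on low values (0.0634), with quantile normalisation (0.0612), with the compared groups alone (0.178) and with edgeR (0.0532). Sema6a, a transmembrane ligand of class A plexins, stood at 5874 and 8744 in WT EB4 against 5083 and 2249 in KO EB4, and by EB8 was at 999 and 1331 in WT against 662 and 716 in KO. It fell from EB4 to EB8 in WT (log2 change of -2.64, adjusted p = 0.00494) and in KO (-2.29, adjusted p = 0.017), and the KO call was lost without KO EB4 replicate 1, KO EB8 replicate 1 or KO EB8 replicate 2 (adjusted p = 0.129, 0.0787 and 0.0672).

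Plexins are the semaphorin receptors. Of the 10 plexins and neuropilins tested, 4 were lower in KO at EB8, where 12.5% of all genes were lower. All 10 had a negative log2 change there, as had 8363 of the 16124 genes tested, and the 10 were measured in the same libraries. From EB4 to EB8, 6 rose in WT and 3 in KO, against 15% and 9.86% of all genes. Plxna4, a receptor for Sema3a and class 6 semaphorins, was at 331 and 314 normalised counts in WT EB8 against 28.5 and 21.3 in KO EB8, from 6.6 and 12.9 in WT EB4 against 9.3 and 11.5 in KO EB4. The groups were indistinct at EB4 and apart at EB8, with a log2 change of -3.66 (SE 0.77, adjusted p = 0.0055). Plxnb1, the receptor of Sema4d, was at 5080 and 6461 in WT EB8 against 1926 and 2264 in KO EB8 (log2 change of -1.46, SE 0.25, adjusted p = 0.00166). Plxnc1, the receptor of Sema7a, stood at 174 and 259 and at 38 and 74.6 (-1.98, SE 0.47, adjusted p = 0.0102), and Plxna3, a receptor used with neuropilins, at 1890 and 2053 and at 896 and 979 (-1.07, SE 0.27, adjusted p = 0.0126). These 2 calls were lost without WT EB8 replicate 2 (adjusted p = 0.0848 and 0.0763) or KO EB8 replicate 1 (0.092 and 0.0726). Plxna3 is X-linked, and genes of chromosome X ran 0.25 to 0.54 log2 units above their stage mean in replicate 2 of every KO group.

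Plxna1, the plexin with the highest level per kilobase in KO EB8 (682 normalised counts per kilobase), did not pass the test at any stage. It ranged from 5373 to 8624 normalised counts in WT and from 2361 to 7608 in KO, the groups overlapped at each stage, and an antisense gene shares 10.7% of its exon length. Plxna2 and Nrp1 were lower in KO at EB5. Nrp1, the co-receptor of Sema3a and of vascular endothelial growth factor, went from 35.1 and 25.7 in WT EB4 to 837 and 1394 in WT EB5, then 2035 and 1634 in WT EB8, and from 17.5 and 12.8 in KO EB4 to 212 and 98.9 and then 656 and 1097. KO lay below WT at each of these stages, and Nrp1 too lies on chromosome 8. The log2 change was -2.89 (SE 0.47, adjusted p = 0.0126) at EB5 and -1.10 (SE 0.47, adjusted p = 0.11) at EB8, and the EB5 call was lost without WT EB5 replicate 2 or KO EB5 replicate 2 (adjusted p = 0.0944 and 0.18). From EB4 to EB8 Nrp1 rose by 5.88 log2 units in WT and 5.73 in KO, and the difference of -0.14 (SE 0.66) was not called (adjusted p = 0.954).

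Plxna2, a signalling partner of neuropilins, moved in the same way, at 3933 and 7383 normalised counts in WT EB5, 2120 and 638 in KO EB5, 3926 and 3475 in WT EB8 against 1385 and 1536 in KO EB8. Its log2 change was -2.21 (SE 0.47, adjusted p = 0.0256) at EB5, lost without WT EB5 replicate 2 or KO EB5 replicate 2 (adjusted p = 0.186 and 0.281), and -1.34 (SE 0.47, adjusted p = 0.0586) at EB8. Nrp2, the second neuropilin, was higher in KO at EB4, at 1890 and 1974 against 414 and 842 in WT (log2 change of 1.71, SE 0.45, adjusted p = 0.046). That call was lost without WT EB4 replicate 1, WT EB4 replicate 2, KO EB4 replicate 1 or KO EB4 replicate 2 (adjusted p = 0.234, 0.0511, 0.104 and 0.263), with no filter on low values (0.0728), with the compared groups alone (0.154) and with edgeR (0.0643). Plxnb3 was below the level needed for testing: it had 0 reads in both WT EB8 libraries and 15 in the KO EB8 libraries together, at least 2.51-fold higher against a floor of 3 reads per library.

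Before EB8 the guidance genes differed in smaller numbers. At EB4, 4 were higher and 7 lower in KO, where 6.12% of all genes were called, 2.75% higher and 3.37% lower, with medians of -0.64 over the guidance genes and -0.00 over all genes. The higher ones were Nrp2, Ntn1, Sema4b and Slit2, and the lower ones Ephb1, Ephb4, Plxnb2, Sema3c, Sema4c, Sema6c and Unc5b. Ephb4, an ephrin-B receptor of veins, stood at 2962 and 2515 normalised counts in WT EB4 against 1661 and 1436 in KO EB4, and Plxnb2, a class B plexin, at 5322 and 8381 and at 3388 and 3254, neither with overlap. At EB4 3 of 6 pluripotency markers were also higher in KO, with sums of 35695 and 17868 in WT against 55972 and 81890 in KO, and their part in these differences was not tested. The EB4 count was 0 without KO EB4 replicate 2, 3 without WT EB4 replicate 1, 4 without WT EB4 replicate 2 and 7 without KO EB4 replicate 1. At EB5, 2 were higher (Epha2 and Sema4b) and 7 lower (Ephb1, Nrp1, Plxna2, Robo2, Sema3c, Slit1 and Unc5a), where 4.34% of all genes were called, 2.17% in each direction. The EB5 count was 0 without WT EB5 replicate 2 or KO EB5 replicate 2 and 4 without WT EB5 replicate 1. No EB4 or EB5 call held whichever library was left out. With the compared groups fitted alone, the count was 0 at EB4 and 2 at EB5, and over all genes tested it was 0 and 72.

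In ES cells limma called 0 of the 66 guidance genes and 0% of all genes, with 12 guidance genes and 1846 genes in all at an unadjusted p under 0.05. DESeq2 called 5 guidance genes there and edgeR 0, and over all genes tested they called 461 and 0. The median log2 change was -0.49 over the guidance genes, of which 50 had a negative value and 16 a positive one. Over all genes it was -0.00, with 8116 negative and 8002 positive values. From ES to EB4, 12 guidance genes rose and 6 fell in WT (16.5% of all genes were called, 8.98% higher and 7.57% lower) and 1 rose and 1 fell in KO (3.5%, 2.51% higher and 0.992% lower), the riser in KO being Sema4c and the faller Efna4. Against their stage mean, genes of chromosome X were at -0.37 and 0.36 in WT ES and -0.19 and -0.13 in WT EB4. Those of chromosome 8 were at -0.02 and -0.05 and at 0.37 and -0.14. The part of this mismatch between libraries in the WT change was not tested. The WT count was 11 without WT EB4 replicate 1. In KO the count was 0 without KO EB4 replicate 1 and 1 without KO ES replicate 2 or KO EB4 replicate 2. Of 6 markers of fibroblasts, the feeder cells of this stage, 5 had a negative log2 change in KO ES, with a median of -2.15 and sums of 1033 and 2650 in WT ES against 209 and 494 in KO ES. limma called 0 of these markers, with 3 at an unadjusted p under 0.05, and their part in the ES values was not tested. Over the 4 stages, 34 guidance genes were called between genotypes at some stage and 32 at none, among them Plxna1, Sema3a, Sema3d, Sema3e, Unc5c and Epha5. The share of all genes called at some stage was not computed, and 22.9% were called at EB8 alone.

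Other genes of the guidance pathways comprised further ligands, co-receptors and signalling proteins inside the growth cone. Of 76 tested, 36 were lower in KO at EB8, 4 were higher and 36 were not called, where 12.5% of all genes were lower and 10.4% higher. At EB4 13 were lower and 1 higher (3.37% and 2.75% of all genes), and at EB5 11 were lower and 0 higher (2.17% in each direction). Their median log2 change at EB8 was -0.76. The furthest apart were Cntn2, a contactin of commissural axons, at 3116 and 4959 normalised counts in WT EB8 against 152 and 98 in KO EB8 (log2 change of -4.998, SE 0.42, adjusted p = 2.51e-05), Ntng2, a membrane-anchored netrin, at 1788 and 2017 against 39 and 19.2 (-6.06, SE 0.83, adjusted p = 0.000452), and Chl1, a cell adhesion molecule of axons, at 117 and 808 against 8.4 and 5.3 (-5.32, SE 0.98, adjusted p = 0.0025). Of those that were higher, Dock1, an exchange factor for Rac that acts below Dcc, was at 1800 and 2306 in WT EB8 against 4222 and 4087 in KO EB8 (log2 change of 1.03, SE 0.19, adjusted p = 0.00281), and Chn2, a Rac-inactivating chimaerin, at 265 and 308 against 512 and 610 (0.97, SE 0.31, adjusted p = 0.0411). Ntn5, a further netrin, passed the test in the same direction from few reads, at 3.2 and 0 in WT EB8 against 10.6 and 16 in KO EB8 (adjusted p = 0.0201).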

How the data were processed

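RNA from 16 mouse libraries, 2 for each of 2 genotypes at 4 stages, was made into poly-A libraries with a kit that does not mark strand and sequenced single-end. The authors used CASAVA 1.7 and 1.8, TopHat2 2.0.10, HTSeq 0.5.4p3 and DESeq2 1.0.19 (from the submitters' processing notes), with genome build mm9 (NCBI37). The deposited values are a signal per gene, read counts divided by size factors of DESeq2, for 27807 genes. Whole reads were recovered from the steps between values for 100% of values (tolerance 0.01), and totals ran from 22442118 to 40711826 reads per library.

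Groups came from the labels. Values were taken as log2(normalised count + 1). limma 3.58.1 (R 4.3.3) fitted a mean per group over all 16 libraries with a trended empirical Bayes spread, 9 contrasts and Benjamini-Hochberg adjustment over the 16124 genes averaging 10 or more normalised counts. As the groups share 1 spread estimate, comparisons with the same libraries are not independent. The fit was tested on simulated data. Alternatives were a pseudocount of 0.1 or 5, the filter dropped or raised to 50, upper-quartile and quantile rescaling, the compared groups alone, the replicate number as a block, edgeR 4.0.16 and DESeq2 1.42.0 on the recovered reads, stricter thresholds and leaving out each library.

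The guidance genes and all lists were chosen with earlier results of these data known. Within each family the genes named with values were up to 4 with the largest change at EB8, the most abundant per kilobase not called there, up to 2 with the largest change at an earlier stage and up to 2 with the largest change from EB4 to EB8 in WT; others were named after their values were seen. Of other pathway genes, the 3 largest changes each way at EB8 among those past the threshold were named. Markers and pathway genes were matched by symbol, Map2 and Draxin through RefSeq synonyms, and Sox1 was not analysed here. Intervals and floors (3 reads per library) cover counting error only. Promoters came from RefSeq (GRCm38.p6), where 57 of 67 genes matched. Figures were drawn with matplotlib 3.10.9.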

Additional observations from a re-analysis of the deposited data

Results flagged for a closer look

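For 7 guidance genes the change from EB4 to EB8 differed between the genotypes by limma's test of the difference itself (log2 change in KO minus that in WT, adjusted over all genes tested). Robo3, the divergent Robo, differed by -6.66 (SE 0.98, adjusted p = 0.00776), and Sema5b by -5.25 (SE 1.26, adjusted p = 0.0471). The netrin receptor Unc5a differed by -4.27 (SE 0.77, adjusted p = 0.014) and its ligand Ntn1 by -3.57 (SE 0.59, adjusted p = 0.0105). Ephb2 differed by -1.49 (SE 0.29, adjusted p = 0.0212). Sema3c, at 3.04 (SE 0.65, adjusted p = 0.0273), and Unc5b, at 2.24 (SE 0.38, adjusted p = 0.0112), differed in the other direction. For each of the 7, the KO and WT libraries did not overlap at EB8. The same libraries entered the test that picked these genes, so this adds no separate support. The share of all genes without such overlap was not computed. The calls of Ephb2, Sema3c, Sema5b and Unc5a were each lost when some single library was left out, with adjusted p of up to 0.079, 0.0922, 0.156 and 0.0671. The call of Sema5b was also lost with a pseudocount of 0.1 (adjusted p = 0.0559), no filter on low values (0.0719), upper-quartile rescaling (0.0545), the compared groups alone (0.0894) and edgeR (0.0854), and that of Unc5b with the compared groups alone (0.051).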

How the results depend on the processing

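Of 137 named results that were called, 49 kept their call under every alternative run and 88 lost it under at least one. Leaving out a library ended 222 of 576 calls refitted, the compared groups alone 57 of 137, no filter 25, quantile normalisation 17, edgeR 16 and DESeq2 0. Of 7 named results that were not called, 1 gained a call and 2 reversed. The reversals were Epha2 at EB8 (log2 change of 0.0016 with upper-quartile rescaling, and -0.34 to 0.061 when an EB8 library was left out) and Unc5c at EB8 (-1.61 to 0.0861 when one was left out, the highest without WT EB8 replicate 2), neither of which was called. Over all genes tested, DESeq2 called 461, 2082, 1758 and 4675 between genotypes at ES, EB4, EB5 and EB8. The compared groups alone called 0, 0, 72 and 3064 of all genes there, and 0 and 23 from ES to EB4 in WT and KO. Counts of guidance genes called between genotypes moved as follows. In ES cells DESeq2 called 5, and leaving out a library gave 0 to 1. At EB4 no filter gave 5, the compared groups alone 0, DESeq2 22, an adjusted p under 0.01 gave 1, and leaving out a library 0 to 7. At EB5 the compared groups alone gave 2, DESeq2 20, an adjusted p under 0.01 gave 0, and leaving out a library 0 to 10. At EB8 an adjusted p under 0.01 gave 12 and leaving out a library 12 to 17. From ES to EB4 in WT the compared groups alone gave 0, an adjusted p under 0.01 gave 10, and leaving out a library 11 to 18. In KO no filter, quantile normalisation, edgeR, an adjusted p under 0.01 and a log2 change of at least 1 each gave 1, the compared groups alone 0, DESeq2 9 (and 1625 of all genes), and leaving out a library 0 to 2. From EB4 to EB8 leaving out a library gave 30 to 35 in WT and 13 to 18 in KO, where an adjusted p under 0.01 gave 11. For the difference between these changes DESeq2 called 13 (and 1081 of all genes), an adjusted p under 0.01 gave 1, and leaving out a library 3 to 6. The cause was not tested, apart from the fewer samples or stricter threshold that some alternatives have by construction.

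Replicate numbers are shared by the groups, but the labels do not say that a number is the same line. Chromosome levels recurred by replicate number, chromosome 11 at 0.16 to 0.26 in KO replicate 1 and X at 0.25 to 0.54 in KO replicate 2. Chromosome 8 was at 0.35 to 0.37 in replicate 1 of the WT embryoid bodies and at -0.02 in that of WT ES. The main fit took all libraries as independent, also those that may share a line. Differences between replicates correlated at 0.523 to 0.605 among the WT embryoid bodies and 0.233 to 0.422 among the KO groups, and at 0.335, -0.0575, -0.209 and -0.133 between genotypes at ES, EB4, EB5 and EB8. For WT ES they were at -0.179 to -0.048 with the WT embryoid bodies, and at 0.281, 0.368 and 0.0563 with KO EB4, EB5 and EB8. With the replicate number as a block the counts were 0, 14, 11 and 23 at ES, EB4, EB5 and EB8, 20 and 2 from ES to EB4 in WT and KO, 42 and 27 from EB4 to EB8, and 7 for the difference, and the only named call it ended was that of Efna4 at EB8 (adjusted p = 0.0515). A block within each genotype, added after seeing the data, gave 21 and 3, 43 and 32, and 10. With 2 libraries a group, calls near the threshold rested on single libraries, and Dcc in ES and EB4 was at or under the floor of 3 reads in both genotypes, so that no fold between genotypes is given there.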
